A study of Mus musculus with 3 samples.

Results

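The red cell membrane and its skeleton were followed here through 8 genes, Slc4a1, Sptb, Ank1, Rhag, Kel, Ermap, Add2 and Tmod1, of the 17250 gene names in the deposited tables. They were chosen by name, for their place in the membrane, with earlier results of these data known. BM cells had been flushed from the long bones and pelvis of male C57BL/6 mice, 6 to 8 weeks old, that had been given recombinant LECT2, a cytokine secreted by the liver, or not. The groups were 0 days, without an injection named in the labels, 3 days and 5 days of LECT2, injected daily under the skin at 300 μg per kg of body weight. Each group is 1 RNA-sequencing library, so that no difference below has a replicate check and no p-value is given. The sources used here do not give the number of mice behind a library.

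A red cell has no inner scaffold, and its shape is held by a protein net under the membrane. Long spectrin rods meet at short actin filaments, and ankyrin and protein 4.1 tie this net to proteins that span the membrane, above all to the anion exchanger band 3. Erythroblasts, the nucleated precursors in the BM, make these proteins while they mature, and the net is completed late, when the nucleus is being lost. Inherited loss of band 3, spectrin or ankyrin gives spherical, fragile red cells.

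The regions before the start sites of the genes are shown first. RefSeq (GRCm38.p6) sequences were at hand for 6 of the 8 genes, Rhag, Kel, Ermap, Sptb, Tmod1 and Add2. The 250 bases before the start were searched on both strands for 2 motifs that erythroid factors are known to bind. The first is the GATA motif of Gata1, spelled GATA with A or T before it and A or G after it. The second is a CACC-type motif as bound by Klf1, spelled CCNCNCCC, whose letters are also met by GC-rich boxes of other factors. The regions of 4 genes are printed 5′ to 3′ on the strand of the gene, with GATA and CACC-type matches in capitals. The first 3 belong to genes that changed little at 3 days and the last to Sptb, whose change at 3 days was the largest of the 8 on the deposited and TMM scales and came after that of Tmod1 with the length trend removed.
Rhag, chr17:40810899-40811148, plus strand: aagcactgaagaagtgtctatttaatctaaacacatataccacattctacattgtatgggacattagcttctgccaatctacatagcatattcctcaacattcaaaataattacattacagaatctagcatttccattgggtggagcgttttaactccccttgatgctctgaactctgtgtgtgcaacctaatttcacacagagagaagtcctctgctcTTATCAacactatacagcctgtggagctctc
Kel, chr6:41704326-41704575, minus strand: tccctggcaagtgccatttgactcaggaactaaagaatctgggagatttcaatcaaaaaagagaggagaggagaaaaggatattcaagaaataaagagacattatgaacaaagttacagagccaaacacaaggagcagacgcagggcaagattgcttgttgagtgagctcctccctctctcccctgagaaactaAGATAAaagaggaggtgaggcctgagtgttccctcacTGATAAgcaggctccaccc
Ermap, chr4:119189996-119190245, minus strand: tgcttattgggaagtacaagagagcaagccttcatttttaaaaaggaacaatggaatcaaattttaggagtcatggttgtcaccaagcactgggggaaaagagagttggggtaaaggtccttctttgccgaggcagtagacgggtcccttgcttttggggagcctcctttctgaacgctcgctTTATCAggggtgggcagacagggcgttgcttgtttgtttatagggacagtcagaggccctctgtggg
Sptb, chr12:76710548-76710797, minus strand: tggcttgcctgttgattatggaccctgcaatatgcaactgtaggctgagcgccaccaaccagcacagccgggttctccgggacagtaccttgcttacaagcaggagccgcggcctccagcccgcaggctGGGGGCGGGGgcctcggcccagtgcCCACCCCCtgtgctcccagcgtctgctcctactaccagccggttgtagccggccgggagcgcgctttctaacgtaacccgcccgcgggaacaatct

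The Rhag region held 1 GATA match, which began 31 bases before the start. The Kel region held 2, at 56 and 19 bases, and the Ermap region held 1, at 67 bases. None of these 3 regions held a CACC-type match. The Sptb region held 0 GATA matches and 3 CACC-type matches at 121, 119 and 96 bases, the first 2 of which overlap. The Tmod1 region, which lies in an exon of GENCODE M21 and is not printed, held 0 GATA and 4 CACC-type matches. The Add2 region held both, 1 GATA and 2 CACC-type matches. Of 32851 RefSeq regions of the same length, 26.5% held a GATA match and 6.4% held 2 or more. A CACC-type match was held by 45.9%, 2 or more by 27.3%, and 8.19% held both kinds. In GENCODE the first exons of Ermap, Kel and Rhag reach 16, 14 and 23 bases into the printed regions. These are matches of letters in 6 regions, set against the levels after these were known, and no binding was measured. No sequence was at hand for Slc4a1 and Ank1, which were also higher at 3 days. Whether the matches go with the changes was not tested.

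A gene's level is given as RPKM, its reads scaled to transcript length and library total, as deposited. Depth was similar, with 15523952 gene reads in the 0-day library, 15146983 in the 3-day library and 15514673 in the 5-day library. The 10 genes with the most reads took 12.5%, 10.4% and 5.38% of them, and the summed level of late neutrophil markers was 150000, 116000 and 41500 RPKM. Beside this, most other genes took a larger share of the reads. Over 11144 genes whose mean was 1 RPKM or more, the median log2 ratio was 0.10 for 3 against 0 days, 0.31 for 5 against 0 days and 0.25 for 5 against 3 days. The changes of the 8 genes are also given with TMM scaling, which brought these medians to 0.02, 0.01 and 0.03. In bulk BM, fewer red cell precursors and less RNA per precursor cannot be told apart. The intervals below are 95% exact intervals of the counts and reflect the error of counting alone, since amplified reads that carry no molecular barcode may be copies of 1 molecule.

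Slc4a1 encodes band 3, the chloride and bicarbonate exchanger that is the most abundant protein of the red cell membrane. It lies on chromosome 11, from 102348824 to 102366203 (GRCm38, GENCODE M21), with 20 exons. It was by far the most abundant of the 8 transcripts, at 109 RPKM (7784 reads) at 0 days, 183 RPKM (12703 reads) at 3 days and 174 RPKM (12390 reads) at 5 days. Both treated libraries stood above the untreated one, and the order of levels ranked Slc4a1 at place 694 of 16008, 377 of 16063 and 355 of 16142 genes with reads. The log2 ratio was 0.74 (0.70 to 0.78) at 3 days and 0.67 (0.63 to 0.71) at 5 days against 0 days. Between 3 and 5 days the difference was small, at −0.07 (−0.11 to −0.03).

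Ankyrin and β-spectrin, which link band 3 to the net, were much less abundant per length than band 3. Sptb, the erythroid β-spectrin, is listed in the tables under its older symbol Spnb1 and was found by its gene ID 20741. It spans 76580488 to 76710547 of chromosome 12 with 36 exons. Sptb had 3.61 RPKM (583 reads) at 0 days, 7.99 RPKM (1261 reads) at 3 days and 10.03 RPKM (1621 reads) at 5 days. Its log2 ratio was 1.13 (1.01 to 1.29) at 3 days and 1.45 (1.34 to 1.62) at 5 days, with 0.32 (0.22 to 0.43) between them. Ank1, erythroid ankyrin, spans 22974844 to 23150497 of chromosome 8 with 45 exons and had 5.50 RPKM (702 reads), 9.65 RPKM (1201 reads) and 12.4 RPKM (1579 reads). Its log2 ratio was 0.80 (0.67 to 0.95) at 3 days and 1.16 (1.04 to 1.30) at 5 days, with 0.36 (0.25 to 0.47) between them. For both genes the order of the libraries was 0, 3 and then 5 days, with counting intervals that did not overlap.

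Rhag, Kel and Ermap, which span the membrane but are not its main anchors, stood within a narrow range of each other. Rhag, the glycoprotein of the Rh complex that passes ammonia, spans 40811126 to 40840754 of chromosome 17 with 10 exons and had 23.4 RPKM (841 reads) at 0 days, 21.6 RPKM (758 reads) at 3 days and 27.2 RPKM (979 reads) at 5 days. Kel, the endopeptidase that carries the Kell blood group, spans 41686330 to 41704339 of chromosome 6 with 19 exons and had 20.6 RPKM (807 reads), 22.3 RPKM (852 reads) and 24.6 RPKM (964 reads). Ermap, an adhesion protein of the immunoglobulin family that carries the Scianna blood group, spans 119175457 to 119190011 of chromosome 4 with 13 exons and had 23.4 RPKM (1660 reads), 24.4 RPKM (1689 reads) and 30.6 RPKM (2174 reads). At 3 days none of the 3 differed from 0 days beyond counting error, with log2 ratios of −0.11 (−0.26 to 0.03) for Rhag, 0.11 (−0.03 to 0.25) for Kel and 0.06 (−0.04 to 0.16) for Ermap. At 5 days each was slightly higher than at 0 days, at 0.22 (0.09 to 0.35), 0.26 (0.12 to 0.39) and 0.39 (0.30 to 0.48), values close to the 0.31 of all genes.

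Tmod1 encodes tropomodulin, which caps the slow-growing ends of the short actin filaments. It spans 46038935 to 46116032 of chromosome 4 with 10 exons and had 2.34 RPKM (105 reads) at 0 days, 4.28 RPKM (187 reads) at 3 days and 3.46 RPKM (155 reads) at 5 days. It was highest at 3 days, with a log2 ratio of 0.84 (0.52 to 1.23) at 3 days and 0.54 (0.20 to 0.93) at 5 days against 0 days. The difference between 5 and 3 days, −0.30 (−0.62 to 0.01), was within counting error as deposited.

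Add2, β-adducin, caps the other end of the filaments and joins them to spectrin. The tables hold 0, 0 and 2 reads for it, which is 0.0161 RPKM at 5 days. A count of 0 allows up to 3 reads by a 1-sided limit, or 0.0241 RPKM at 0 days and 0.0247 RPKM at 3 days (0.0297 and 0.0304 RPKM by the 2-sided intervals used elsewhere), and no fold is given. The only row with this name is keyed to a RefSeq transcript of 8006 bases instead of the Entrez gene ID. Rows keyed to transcripts held few reads in general. Over the 3 libraries 816 such rows had a median of 8 reads, and 31.6% of them had 3 or fewer, against a median of 570 reads and 9.43% for the 16743 rows keyed to gene IDs. The row of dematin (Dmtn), another protein of the filament junction, is of the same kind, and its 1, 2 and 1 reads likewise say little of the gene.

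**Figure D1:**
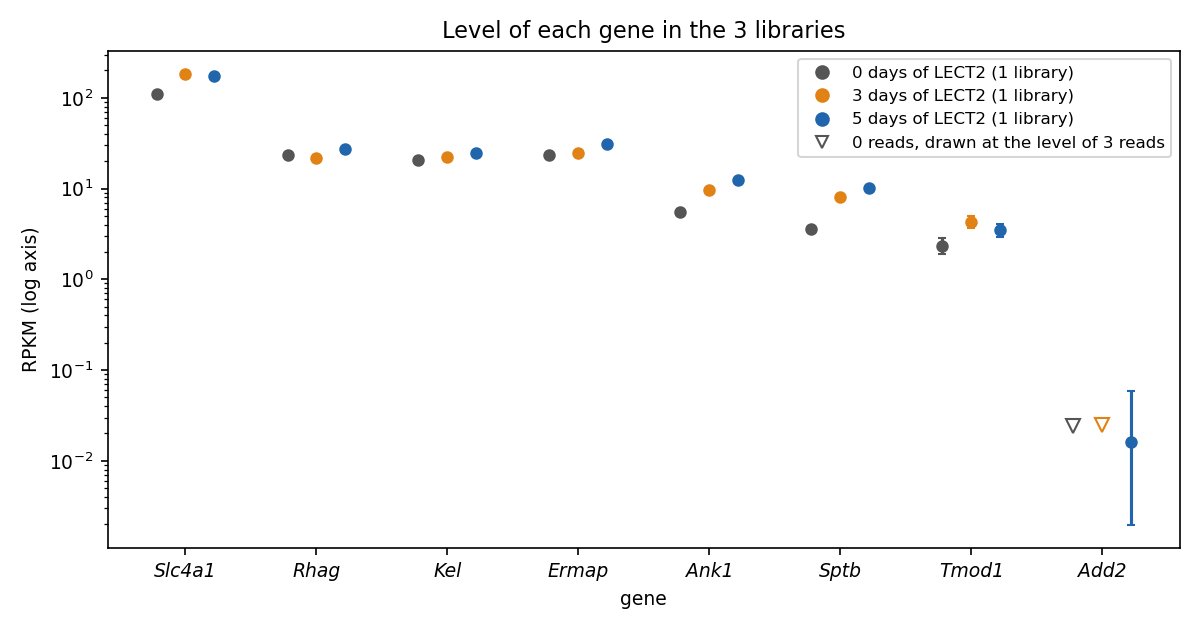
Level of the 8 genes in RPKM on a log axis, 1 point per library at 0, 3 and 5 days of LECT2, with 95% exact counting intervals (most are smaller than the points). Slc4a1 stands at 109 to 183 RPKM, Rhag, Kel and Ermap at 20.6 to 30.6, Ank1, Sptb and Tmod1 at 2.34 to 12.4, and Add2 at or below the level of 3 reads (open triangles mark 0 reads).

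Against 0 days, the 8 genes had a median log2 ratio of 0.43 after 3 days and 0.47 after 5 days, and between 3 and 5 days one of 0.27, beside 0.10, 0.31 and 0.25 over all genes. Without Add2 the medians of the remaining 7 were 0.74, 0.54 and 0.32. At 3 days 1 of the 7 genes with at least 1 RPKM, Sptb, was at least 2-fold higher, beside 4.08% of all genes tested, and 0 were at least 2-fold lower, beside 2.41%. At 5 days Sptb and Ank1 were at least 2-fold higher than at 0 days, 2 of 7 beside 15.5% of all genes, and 0 were lower, beside 5.91%. Between 3 and 5 days 0 of 7 passed 2-fold in either direction, beside 1.95% higher and 3.45% lower. With TMM scaling Sptb alone stayed past 2-fold, with log2 ratios of 1.04 and 1.15 against 0 days, beside 3.1% of all genes at 3 days and 7.13% at 5 days. On that scale Ank1 was at 0.72 and 0.85, Slc4a1 at 0.66 and 0.36 and Tmod1 at 0.76 and 0.24. The values at 5 days were −0.09 for Rhag, −0.05 for Kel and 0.08 for Ermap. The scale turned the sign of Rhag and Kel at 5 days, of Ermap at 3 days and of Kel between 3 and 5 days. From 3 to 5 days it put Slc4a1 at −0.29 and Tmod1 at −0.52, while Sptb (0.10), Ank1 (0.13), Rhag (0.11) and Ermap (0.10) were slightly higher.

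These ratios have to be read against length, since several of the genes are long, and long genes as a whole were higher in the treated libraries. Among genes of 5801 bases or more, the decile of Sptb (10417 bases) and Ank1 (8218 bases), the median log2 ratios were 0.55 and 0.85 at 3 and 5 days, and 39.2% were at least 2-fold higher at 5 days. Among genes of 2276 to 2696 bases, the decile of Rhag (2316 bases) and Kel (2524 bases), the medians were 0.08 and 0.33, and 11.1% were at least 2-fold higher at 5 days. Within its own decile Sptb stood at percentile 94.6 at 3 days and 87.2 at 5 days, and Ank1 at 77.6 and 72.7. Tmod1 (2887 bases) also stood at percentile 94.6 at 3 days, but at 59.6 at 5 days. Slc4a1 (4584 bases) stood at 84.1 at 3 days and at 50.6, the middle of its decile, at 5 days. Rhag, Kel and Ermap (4573 bases) stood at 27.7, 53.4 and 17.9 at 3 days and at 43.5, 46.0 and 30.1 at 5 days.

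**Figure D2:**
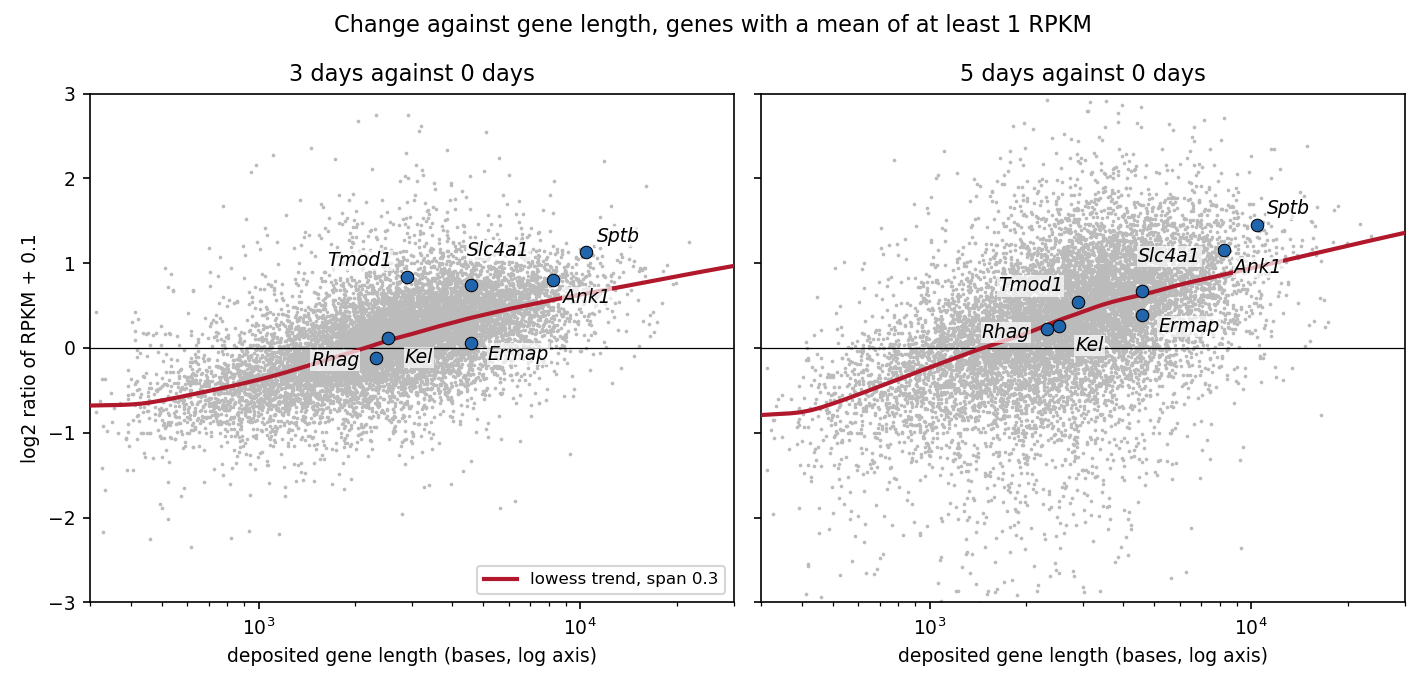
Log2 ratio of RPKM + 0.1 against the deposited gene length (log axis) for genes whose mean was 1 RPKM or more (grey points), the lowess trend (red line) and 7 of the 8 genes (blue points), at 3 days (left) and 5 days (right) against 0 days; ratios beyond ±3 and lengths beyond the axis are not drawn. Sptb and Ank1 lie at the long end, where the trend itself is at 0.57 to 0.64 at 3 days and 0.87 to 0.96 at 5 days, and Ermap lies below the trend in both panels.

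When the trend on length was subtracted (lowess), 0 of the 7 genes were at least 2-fold higher in any comparison, beside 2.59% of all genes at 3 days and 5.05% at 5 days. The largest remaining log2 ratios at 3 days were 0.69 for Tmod1, 0.48 for Sptb, 0.39 for Slc4a1 and 0.23 for Ank1. Kel was then at 0.03, Rhag at −0.16 and Ermap at −0.30. At 5 days Sptb kept 0.49 and Ank1 0.29, while Tmod1 was at 0.14, Slc4a1 at 0.04, Rhag at −0.05, Kel at −0.07 and Ermap at −0.24. The median of the 8 genes was 0.13 at 3 days and −0.00 at 5 days. What gives rise to the trend was not tested.

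**Figure D3:**
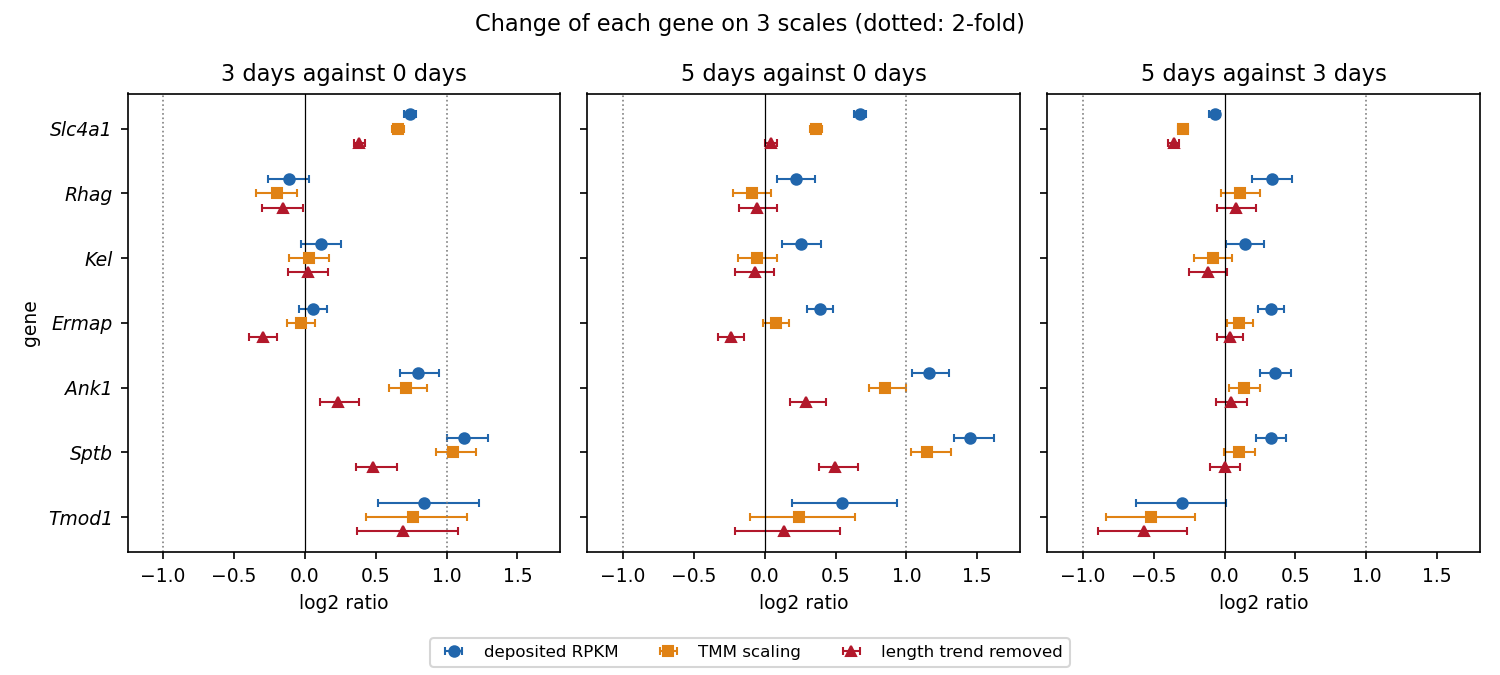
Log2 ratio of 7 of the 8 genes in the 3 comparisons, from the deposited RPKM (blue circles), with TMM scaling (orange squares) and with the length trend removed (red triangles), with the counting interval of the deposited ratio drawn on each; dotted lines mark 2-fold. Sptb passes 2-fold on the first 2 scales at 3 and 5 days (1.13 and 1.45, 1.04 and 1.15) and on none with the trend removed (0.48 and 0.49).

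Pairs of the 8 genes of like length (a ratio of lengths below 1.3) share the scaling of the libraries and are nearer in length, and the difference of their log2 ratios against 0 days was taken from the counts. These differences compare changes and not levels. Slc4a1 and Ermap differ by 11 bases. At 3 days the log2 ratio of Slc4a1 was higher than that of Ermap by 0.68 (0.57 to 0.79) and at 5 days by 0.28 (0.18 to 0.38), so that Ermap went from 21.4% of the Slc4a1 level to 13.3% and 17.6%. The log2 ratio of Kel minus that of Tmod1 was −0.75 (−1.14 to −0.37) at 3 days, and for Rhag minus Tmod1 it was −0.98 (−1.37 to −0.60), while at 5 days both intervals took in 0, at −0.31 (−0.70 to 0.09) and −0.34 (−0.74 to 0.05). With the length trend removed the differences at 5 days were −0.21 for Kel and −0.19 for Rhag. The log2 ratio of Sptb exceeded that of Ank1 by 0.34 (0.14 to 0.54) at 3 days and 0.31 (0.12 to 0.50) at 5 days, or by 0.25 and 0.20 without the trend. The ratio of Rhag minus that of Kel was −0.23 (−0.43 to −0.03) at 3 days and −0.04 (−0.23 to 0.16) at 5 days, or −0.18 and 0.02 without the trend. At 3 days the change of Slc4a1 was thus above that of Ermap, and the change of Tmod1 above those of Rhag and Kel. From 3 to 5 days Slc4a1 minus Ermap was −0.40 (−0.50 to −0.30), Rhag minus Tmod1 was 0.64 (0.29 to 0.99) and Kel minus Tmod1 was 0.45 (0.10 to 0.79).

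Partners in the membrane, which differ more in length, were compared by the same differences of log2 ratios against 0 days, in 5 pairs picked after the values had been seen, for their known contacts. Protein 4.1 (Epb41, 6565 bases) went from 25.8 to 63.8 and 42.9 RPKM, and the ratio of Sptb minus that of Epb41 was −0.16 (−0.31 to 0.00) at 3 days and 0.74 (0.59 to 0.90) at 5 days. With the length trend removed these differences were −0.33 and 0.55.

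For Slc4a1 minus Epb42, whose product protein 4.2 binds band 3 and ankyrin, the difference of log2 ratios was 0.03 (−0.11 to 0.16) at 3 days and 0.25 (0.11 to 0.39) at 5 days, or −0.09 and 0.13 without the trend. Epb42 was at 14.9, 24.5 and 20.01 RPKM. Rhd, the partner of Rhag in the Rh complex, is shorter (1530 bases) and was the more abundant of the 2, at 39.7, 30.4 and 30.6 RPKM. The log2 ratio of Rhag was higher than that of Rhd by 0.27 (0.07 to 0.47) at 3 days and 0.60 (0.40 to 0.79) at 5 days, or by 0.06 and 0.35 without the trend. Kel and Xk, whose products are joined by a disulphide bond, had the largest difference of the 5 pairs at 5 days. The log2 ratio of Kel minus that of Xk was −1.20 (−1.52 to −0.89) after 3 days and −1.61 (−1.91 to −1.31) after 5 days, or −0.86 and −1.22 without the trend. Xk (5062 bases) went from 1.97 to 4.92 and 7.19 RPKM. Tmod1 stood at 7.58%, 18.0% and 11.9% of the level of the tropomyosin Tpm1 (1702 bases), and its log2 ratio was the higher by 1.25 (0.86 to 1.64) at 3 days and 0.65 (0.25 to 1.04) at 5 days, or by 0.96 and 0.30 without the trend.

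Relatives of the 8 genes, which are not restricted to red cells, were set beside them, again by differences of log2 ratios against 0 days. The ratio of Sptb exceeded that of Sptbn1 (listed as Spnb2, 9049 bases), the β-spectrin of most other cells, by 0.44 (0.28 to 0.60) at 3 days and 0.43 (0.27 to 0.58) at 5 days, or by 0.38 and 0.35 without the trend. Sptbn1 was the more abundant of the 2, at 18.9, 30.9 and 39.3 RPKM. Tmod3, the widely expressed tropomodulin, stood far above Tmod1, at 34.9, 44.8 and 42.8 RPKM, while the ratio of Tmod1 exceeded that of Tmod3 by 0.51 (0.14 to 0.88) at 3 days and by 0.27 (−0.11 to 0.65) at 5 days, or by 0.58 and 0.37 without the trend. Ece1, a related endopeptidase of 4856 bases, stood below Kel, at 3.57, 5.78 and 9.28 RPKM. The ratio of Kel minus that of Ece1 was −0.58 (−0.85 to −0.32) at 3 days and −1.12 (−1.37 to −0.87) at 5 days, or −0.28 and −0.78 without the trend. The other adducins, Add1 and Add3, were well covered, at 75.8, 93.5 and 88.4 RPKM and at 46.1, 66.8 and 63.6 RPKM. Add1 is also among the further genes of the net counted below. Slc4a7 (7389 bases), a relative of Slc4a1, was at 5.06, 6.14 and 7.31 RPKM. The ratio of Slc4a1 exceeded that of Slc4a7 by 0.46 (0.30 to 0.63) at 3 days. At 5 days the difference was 0.14 (−0.02 to 0.30), and without the trend the differences were 0.64 and 0.34. Slc4a2, Ank3, Mme, Rhcg and Btn2a2 had 23 reads or fewer in each library, and Ank2 had 57, 16 and 14.

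Of 9 further genes of the net, listed with earlier results of these data known, 8 had a mean of at least 1 RPKM. They had median log2 ratios of 0.48 and 0.43 at 3 and 5 days (0.39 and 0.12 with TMM), with 6 of 8 higher at each time on the deposited scale. At 5 days 5 of 8 were higher with TMM, and with the length trend removed 5 of 8 were higher at 3 days and 2 of 8 at 5 days. Epb41 was the 1 of 8 to pass 2-fold at 3 days, at 1.30 (0.81 without the length trend), beside 4.08% of all genes and 9.66% of those in its length decile. Without the trend the medians were 0.23 and −0.13. Mpp1, the palmitoylated protein p55 of the 4.1 complex, was at 40.9, 58.2 and 55.3 RPKM. Actb, the actin of the filaments and of all other cells, was at 7950, 6170 and 4140 RPKM, and it was the 1 of 8 to be at least 2-fold lower at 5 days with TMM, beside 10.2% of all genes on that scale, and its deposited log2 ratio was −0.94. Of 18 other proteins that span or line the membrane, 17 were tested, and their median was 0.01 at 3 days and 0.18 at 5 days, or −0.08 and −0.13 with TMM. Piezo1 and Xk, 2 of the 17, were at least 2-fold higher at 3 days, beside 4.08% of all genes, and at 5 days, beside 15.5%. With the length trend removed Xk was at 0.88 at 3 days, so that 1 of the 17 passed 2-fold, beside 2.59%. At 5 days both still passed, beside 5.05%. Piezo1 (listed as Fam38a, 8216 bases), the mechanically gated channel, was at 2.23, 6.89 and 15.1 RPKM, with a log2 ratio of 2.71 after 5 days that was 1.84 once the trend was removed. Piezo1 is not restricted to red cells. The complement inhibitor Cd59a was lower at 3 days, at 8.27, 4.42 and 5.27 RPKM.

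The erythroid label was checked against 20 genes of red cell precursors outside the membrane, 19 of which had a row and all of these a mean of at least 1 RPKM. The transcription factors Gata1 (22.4, 16.0 and 21.9 RPKM) and Klf1 (26.5, 21.3 and 27.8 RPKM), the heme enzyme Alas2 (175, 244 and 107 RPKM) and the globin Hba-a1 (2250, 1590 and 596 RPKM) were present in every library. The 19 genes had a median log2 ratio of −0.22 after 3 days and −0.16 after 5 days, beside 0.74 and 0.54 for the 7 membrane genes with at least 1 RPKM. As deposited, 8 of the 19 were higher and 11 lower than at 0 days at each of these times. At 5 days 3 of the 19 were at least 2-fold lower (Hba-a1, Hbb-b1 and Bpgm), beside 5.91% of all genes, and with TMM 5 of the 19, beside 10.2%. None was 2-fold higher or more on any of the 3 scales, beside 15.5% as deposited. The median length of this list was 1823 bases against 4573 for the 7 membrane genes, and with the length trend removed its median was −0.04 at 3 days and −0.41 at 5 days, beside 0.23 and 0.04 for the 7.

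Of 8 listed genes of late erythroblasts and reticulocytes, 7 were highest at 3 days on the deposited scale. All 8 were higher at 3 than at 0 days on that scale, with a median of 0.68, and 5 of 8 with the trend removed, with a median of 0.49. At 3 days 3 of 8 (Tent5c, Ube2o and Foxo3) were at least 2-fold higher, or 2 with TMM, beside 4.08% of all genes as deposited and 3.1% with TMM. With the trend removed Bnip3l, Xpo7 and Ube2h were slightly lower at 3 days, at −0.075, −0.20 and −0.11. At 5 against 0 days the median of the 8 was −0.02 as deposited, −0.32 with TMM and −0.65 with the trend removed. On the last scale 1 of 8 was at least 2-fold higher and 2 were lower, beside 5.05% and 7.61% of all genes. From 3 to 5 days 7 of 8 were lower, with a median of −0.66 (−0.95 with the trend removed). Among them Tent5c (listed as Fam46c) was at 15.5, 34.4 and 14.03 RPKM and Ube2o, a ubiquitin ligase of reticulocytes, at 11.9, 25.2 and 12.8 RPKM. Foxo3, a transcription factor with a role in erythroblast maturation, was at 5.73, 14.8 and 16.2 RPKM. Between 3 and 5 days 3 of the 7 membrane genes were lower and 4 higher with the trend removed, with log2 ratios of −0.36 for Slc4a1 and −0.57 for Tmod1 (−0.07 and −0.30 as deposited), and of 0.0008 for Sptb and 0.04 for Ank1 (0.32 and 0.36 as deposited).

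**Figure D4:**
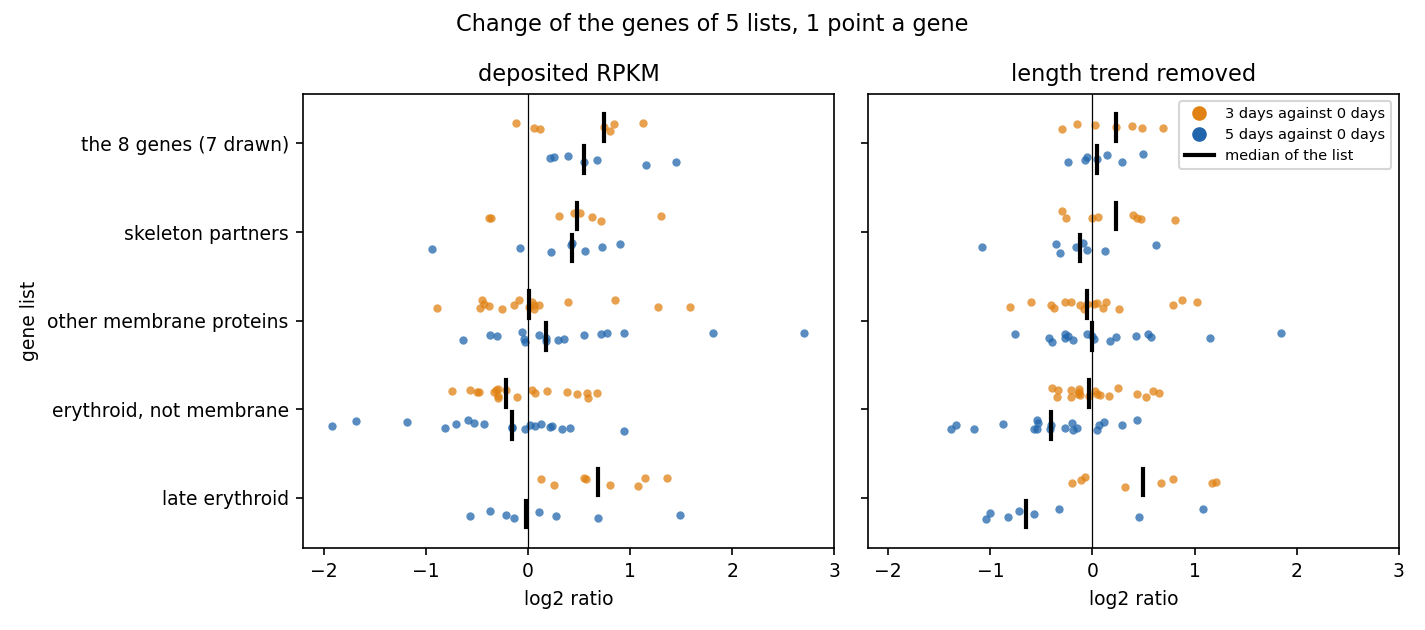
Log2 ratio of each gene of 5 lists whose mean was 1 RPKM or more, at 3 days (orange) and 5 days (blue) against 0 days, from the deposited RPKM (left) and with the length trend removed (right); black bars are the list medians. On the left the 7 drawn membrane genes have medians of 0.74 and 0.54 and the erythroid genes outside the membrane −0.22 and −0.16; on the right the medians are 0.23 and 0.04 against −0.04 and −0.41.

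Markers of other cell types moved with the same libraries. Summed macrophage markers went from 423 to 575 and 762 RPKM, and 5 of 10 were at least 2-fold higher at 5 days, beside 15.5% of all genes. With TMM 2 of the 10 were, beside 7.13%, and with the length trend removed 3 were, beside 5.05%. Among the 10 markers Mpeg1 was at 127, 214 and 307 RPKM, while C1qa (62.4, 57.6 and 54.4 RPKM), C1qb (54.1, 48.9 and 52.3 RPKM) and C1qc (50.96, 48.6 and 48.8 RPKM) were slightly lower in the treated libraries as deposited. With the length trend removed these 3 were higher at 3 days, at 0.23, 0.20 and 0.28, and at −0.02, 0.14 and 0.13 at 5 days. The 10 cell-cycle genes went from 406 to 501 and 871 RPKM, and 6 of 10 were at least 2-fold higher at 5 days, beside the same 15.5%. With TMM 3 of the 10 were, beside 7.13%, and with the length trend removed 2 were, beside 5.05%. Each of the 11 late neutrophil markers with enough reads was at least 2-fold lower after 5 days as deposited and with TMM, and 10 of 11 with the length trend removed, beside 5.91%, 10.2% and 7.61% of all genes. None of the 12 listed markers was at 0 reads. Promyelocyte markers summed to 2240, 2070 and 3620 RPKM, B cell markers to 2420, 1920 and 1740, T and NK cell markers to 175, 102 and 147, and megakaryocyte markers, which share some factors with red cells, to 51.2, 33.4 and 46.3. In these 4 lists too, no marker was at 0 reads in any library. The part of any of these cells in the levels of the 8 genes was not tested.

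The genes nearest to the medians of the 8 (0.43 and 0.47 at 3 and 5 days) were sought among 3924 genes whose mean reached 20 RPKM. The nearest 10 were Rbm5, Cd22, Rbms1, Plcg2, Xpo6, Akirin1, 2810403A07Rik, Ppp1r18, Apobec1 and Cyth4, at distances of 0.0042 to 0.027. These medians include Add2, which had 0, 0 and 2 reads, and at 3 days the value lies between the 0.11 of Kel and the 0.74 of Slc4a1, so that it is the pattern of none of the 8 genes.

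Annotated spans of other genes overlap those of 5 of the 8 genes, and the library kit does not mark the strand. Sptb overlaps Plekhg3 and Gm24010, Tmod1 overlaps Tstd2, Add2 overlaps Gm44089 and Gm44090 and Kel overlaps Gm37527, while the span of Ank1 holds Mir486, Mir3107, Gm15815, Gm15816 and Gm44365. Where such a gene is expressed, its reads in the overlap cannot be told apart from those of the gene. How many reads came from overlaps was not measured.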

How the data were processed

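Per the labels, RNA of flushed BM cells was extracted with Trizol, enriched for poly(A) RNA and made into TruSeq libraries. The authors deposited 1 table per pair of time points, with whole read counts, gene length, RPKM, log2 ratio, P value and false discovery rate. Cufflinks 1.0.3 is named in the methods, and the submitters' notes name the build mm8; the aligner and the handling of reads that map to several places are not given in the sources used here. The authors' ratios and P values were not used. The deposited RPKM was used as it stands, with 0 for genes without reads. It matched the deposited counts within 0.1% except in 18 rows at 0 days and 14 at 3 days, none of them a listed gene.

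Samples were grouped by the labelled days of treatment. Where a name had several rows, that of highest mean RPKM was used. Changes are log2 ratios of RPKM + 0.1, which understate those of low genes. Calls needed 2-fold and at least 1 RPKM in either library. Intervals are 95% exact (Clopper-Pearson; for differences of ratios, the exact interval of the odds ratio of the counts). A gene with 3 reads or fewer was taken as at the floor. Length trends were fitted by lowess with a span of 0.3. The 8 genes and all lists were chosen with earlier results of these data known, and any gene of a list could be named. Alternatives were pseudocounts of 1 and 0.01, TMM, median-of-ratios scaling, scaling without the 100 most abundant genes, summed rows, a minimum of 5 RPKM or none, a 1.5-fold threshold and removal of the length trend. Leaving out Add2 or Sptb was added after seeing the data. Tools were Python 3.11.15, pandas 2.3.3, numpy 2.4.6, scipy 1.17.1, statsmodels 0.14.6, matplotlib 3.10.9, R 4.3.3, edgeR 4.0.16 and DESeq2 1.42.0, the last 2 for scaling factors only. In simulated counts for 5 against 0 days, 200 of 200 genes changed 4-fold were recovered among 11268 tested, with 47 others called (0.425%). With a length trend imposed and removed, 200 of 200 were recovered among 11291, with 71 others called (0.64%). The simulated counts held counting error alone. These rates check the computation and do not cover variation between mice or libraries, which 1 library per group cannot show. Some genes of the lists are not reported by name here.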

Additional observations from a re-analysis of the deposited data

How the results depend on the processing

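The median log2 ratio of the 8 genes at 3 days, 0.43, was 0.13 with the length trend removed, 0.74 without Add2 and 0.11 without Sptb, the last 2 chosen after seeing the data. At 5 days it was 0.47, and 0.62 with a pseudocount of 0.01, 0.22 with TMM, 0.22 with median-of-ratios factors, 0.28 when the 100 most abundant genes were left out of the scaling, and −0.0042 with the trend removed. Between 3 and 5 days it was 0.27, and 0.10 with TMM, 0.11 with median-of-ratios scaling and −0.049 with the trend removed. The count of genes at least 2-fold higher at 3 days, 1, was 0 with a pseudocount of 1 or the trend removed and 4 at 1.5-fold. At 5 days it was 2, and 1 with each of these 3 scalings and 0 with the trend removed. Of the 21 single ratios, 13 moved beyond their counting interval with TMM and 17 with the trend removed, all downward. No paired analysis was possible because each time point has 1 library.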
